A study of Mus musculus with 34 samples.

Results

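The exons described here are the shortest microexons of the mouse transcriptome, cassette exons of 3 to 15 nt, in Neuro-2A (N2A) cells, a mouse neuroblastoma line with neuronal features. They were taken by annotated length alone from the table of alternative splicing events of the series: 681 of the 160750 exon events had a length of 3 to 15 nt, and they lay in 596 genes, 65 of which had 2 or more such exons. The value measured was the PSI, the percent of a gene's transcripts, judged by reads over splice junctions, in which the exon is spliced in. A PSI was read only in libraries whose coverage score for that exon was SOK, OK or LOW and whose junction balance passed or was not scored. Of the 681 exons, 395 had such coverage in at least 1 of the 34 libraries. The balance filter kept 374, and 322 had a mean PSI in DMSO over 2 or 3 libraries. Of these 322, 309 were quantified by a microexon module that writes no balance score, so their balance was not checked. The 681 exons were 515 whose length is a multiple of 3 and 166 whose length is not.

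N2A cells were treated for 24 h with 1 of 27 small molecules or with the solvent DMSO, and splicing was read by RNA-seq. DMSO had 3 libraries. The activators, which the study classed as raising microexon inclusion, were the histone deacetylase (HDAC) inhibitors Vorinostat (2.5 µM), CI-994 (5.0 µM), BRD6688 and BRD4884 (both 10.0 µM), with 2 libraries each; the kinase inhibitors A-443654 (250 nM), NVP-AEW-541 (1.0 µM), Trametinib (1.0 µM), Crenolanib (2.0 µM), SCH-772984 (2.0 µM) and GNF-5837 (500 nM); and the screening molecules BTB12021 (20 µM), BTB13120 (under 1 µM), RDR00572 (2.5 µM), S02045 (5.0 µM), BTBS00065 (2.5 µM), SEW06315 (2.5 µM) and RH01954 (2.5 µM). The inhibitors, classed as lowering inclusion, were 5-azacytidine (5.0 µM), MK-1775 (2.0 µM), AW00693 (5.0 µM), SPB00858 (20 µM), JFD00822 (5.0 µM), and T5635931, T5758020, T5963258, T5985871 and a ChemBridge compound (6.7 µM each). The 23 compounds other than the HDAC inhibitors had 1 library each, so a difference between such a compound and DMSO compares libraries. The classes came from a splicing reporter built on a longer microexon of Mef2d and from RT-PCR of a few endogenous exons, among them the 15-nt exon of Ergic3. The direction of a class on these exons is for that reason no independent evidence, and doses differed between compounds.

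Microexons are spliced mostly in neurons, where the protein SRRM4 and its relative SRRM3 bind just upstream of the exon and help the splicing machinery to recognise an exon too short for the usual pairing of factors across it. Many encode a few residues at the surface of proteins that act in vesicle traffic, adhesion and the cytoskeleton, so that inclusion changes a binding site rather than a fold. Within a coding sequence, an exon whose length is a multiple of 3 adds codons and keeps the reading frame, whereas any other length shifts the frame of what follows.

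Of the 681 exons, 235 were matched by their junctions to a transcript of GENCODE vM21 on GRCm38, and 220 of these were coding in full. The sequences of the exons that the results turn on are printed with the 7 bases of the spliced transcript on either side. Capitals mark the microexon, and all run 5′ to 3′ on the strand of the gene, with coordinates on GRCm38. The 3-nt exons of Mon2 and Tbc1d4 moved with the compound classes, whereas that of Cyth2 was called with no compound.
Mon2 (chr10:123023086-123023088, minus strand): acttgagAAGgtctgcc
Tbc1d4 (chr14:101460699-101460701, minus strand): ctggaagAAGcaagaag
Cyth2 (chr7:45808730-45808732, minus strand): aagctggGAGggggccg
The 6-nt exons are those of Pacsin2, with the largest class difference at that length, and Git2.
Pacsin2 (chr15:83383623-83383628, minus strand): gtttgagGATGAAgagtggt
Git2 (chr5:114753148-114753153, minus strand): cagacagACGGCTcagcctg
The paralogs Lphn1 and Lphn2 carry a microexon between like flanks, 15 nt in one and 12 nt in the other.
Lphn1 (chr8:83926262-83926276, plus strand): ccttacaAAGTGGAGCAGAAAGtcttcgt
Lphn2 (chr3:148860427-148860438, minus strand): ccttacaTGGAGCAAAAAGtctttgt
Both microexons of L1cam, the paired exons of Vav2, and those of Dctn1 and Zmynd8 were called between the classes.
L1cam, 12 nt (chrX:73855652-73855663, minus strand): agtacagGTCCCTGGAGAGtgacaat
L1cam, 15 nt (chrX:73867022-73867036, minus strand): gacgaatATAAAGGACACCATGtgctaga
Vav2, upstream exon (chr2:27300430-27300444, minus strand): gcccatgATCAGATACATGCAGaaaatgg
Vav2, downstream exon (chr2:27284839-27284853, minus strand): caagaagTCTCATGGGAAGATGtggtcct
Dctn1 (chr6:83197319-83197333, plus strand): gctggtgAGGAACCACAGCGAGggggcgc
Zmynd8 (chr2:165852868-165852879, minus strand): tccaaagAACCTAAGGAAGatcctgt
The exons of Vps29 and Ccnl1 moved with several compounds in ways that did not follow the classes, and that of Spna2 was called with all of the HDAC inhibitors.
Vps29 (chr5:122356794-122356805, plus strand): caggatgGCTGGGCACAGAttggtgt
Ccnl1 (chr3:65950213-65950226, minus strand): ctgcctgGGTAGTCCATGATGgaattac
Spna2 (chr2:30014158-30014172, plus strand): catccagCTTTCCAAGCTGTTGagcaagc
The matched exons were all coding except that of Ccnl1, which lay in the 3′ UTR. No GENCODE match was found for the exons of Cdon, Asap2, Sypl, Scyl2, Eea1 and Cyth1, which are given by their mm9 coordinates: Cdon chr9:35283315-35283328, Asap2 chr12:21220228-21220231, Sypl chr12:33653499-33653508 and Eea1 chr10:95462985-95462999 on the plus strand, and Scyl2 chr10:89117080-89117091 and Cyth1 chr11:118041516-118041518 on the minus strand.

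The reads behind the PSI of all exon events that passed came to 21449574 to 50551179 per library (median 32520900), 302 to 346 of the very short exons passed per library, and the median number of reads behind 1 of them was 142 to 340. The neuroblastoma and neuronal genes checked were expressed in DMSO (Hand2 at 247.51 RPKM, Tubb3 at 395.99, Stmn2 at 174.75), except Nefl and Nefm (0.01 each). The 12 markers of other cell types were at or under 1.93 RPKM in DMSO. Under CI-994 the fibroblast gene Col1a1 reached 11.67 RPKM, the highest value of that list in any condition.

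In DMSO most of the measured exons were skipped, and a smaller group was spliced into nearly all transcripts. Among the 322 exons, the median PSI was 2.2, with quartiles of 0.0 and 66.4. A mean PSI under 10 was found for 198, of which 81 were at 0 in every passing library, and 55 had a mean over 90. The 69 exons between these limits are the ones with most room to move in both directions. The median was 2.22 in replicate 1 (331 exons), 1.51 in replicate 2 (325) and 1.42 in replicate 3 (306), and the SD of an exon over the DMSO libraries had a median of 0.70 PSI, or 3.0 among the exons between 10 and 90.

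Inclusion differed by length and by whether the length is a multiple of 3. Of the 3-nt exons, 61 of 83 had a PSI in DMSO, with a median of 0.8. Of these, 49 were under 10, 7 lay between the limits and 5 were over 90. The median rose to 3.1 for the 30 measured exons of 6 nt and 5.0 for the 49 of 9 nt, and was 17.7 for the 71 of 12 nt and 5.7 for the 56 of 15 nt. Lengths that are no multiple of 3 were skipped more often: medians were 0.9 at 4 nt (8 exons), 0.0 at 7 nt (9), 0.2 at 8 nt (8), 0.0 at 10 nt (5), 0.2 at 13 nt (11) and 0.2 at 14 nt (8), with 11 nt (5 exons) at 20. Over all lengths the 267 measured exons with a multiple of 3 had a median of 3.6 and an upper quartile of 77.2, with 153 under 10, 64 between 10 and 90 and 50 over 90. The 55 others had a median of 0.2 and an upper quartile of 3.1, with 45, 5 and 5. Annotation went with inclusion too: 119 measured exons that are coding in GENCODE had a median PSI of 67.9, and 195 without a GENCODE match had one of 0.3. Longer microexons were mostly included in the same libraries, as the 323 measured exons of 16 to 27 nt had a median PSI of 93.6, with 14.2% of them under 10.

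**Figure D1:**
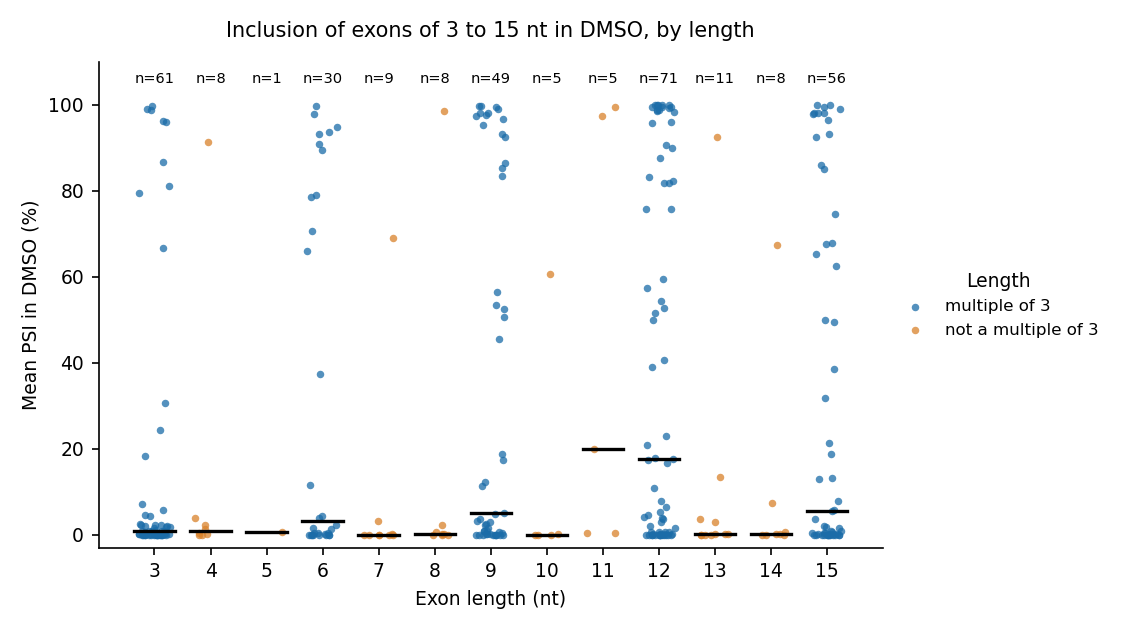
Mean PSI in DMSO (vertical axis, percent) against exon length (horizontal axis, nt) for the 322 exons of 3 to 15 nt with a mean in DMSO. Each point is 1 exon, colour tells whether the length is a multiple of 3, black lines are medians and the number above each length is its count of exons. Most points sit under 10 at every length except 11 and 12 nt, and the points over 90 are mostly exons of 6, 9, 12 and 15 nt.

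The compounds were then compared with DMSO one at a time. An exon counted as increased or decreased where its mean PSI differed by at least 10 from the DMSO mean and the reads gave a posterior probability above 0.95 for that direction. This probability covers the counting error of the reads and the spread between the libraries of a group. A compound with 1 library adds no such spread, so for these 23 compounds a call says that the libraries differed. All compounds were set against the same 3 DMSO libraries, so their counts are not independent of each other. Of the 322 exons tested with any compound, 115 were called with at least 1 and 274 were tested with all 27. A like count over all exon events is not given.

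Over the 17 activators, 332 of 5354 pairs of exon and compound were increases (6.2%) and 39 were decreases. Over all exon events the share was 0.588% for increases and 0.66% for decreases with the same compounds. Over the 10 inhibitors, 304 of 3118 pairs were decreases (9.75%) and 24 were increases, beside 1.23% and 0.318% over all exon events. These shares differ in room to move. Among all exon events with a mean PSI in DMSO, 90.8% lay above 90 and could not be called increased. Of the very short exons, 61.5% lay below 10 and could not be called decreased. The same limit holds for the shares given below for each compound. Where limma over all 34 libraries replaced the posterior call, with the compounds of 1 library assumed to vary like the replicated groups, 52 increases with activators and 66 decreases with inhibitors were left. As a measure of the noise of the call, each DMSO library was set against the other DMSO libraries in the same way, which called 3 increases and 3 decreases for replicate 1, 3 and 1 for replicate 2, and 3 and 4 for replicate 3, of 304 to 322 exons. These shares were 0.932% to 0.987% for increases, beside 0.307% to 0.362% over all exon events, and 0.311% to 1.32% for decreases, beside 0.411% to 0.535%. Increases with activators fell on 70 exons and decreases with inhibitors on 76, and 39 exons were in both counts. Increases with at least 5 activators were seen for 29 exons, and decreases with at least 5 inhibitors for 31. These counts per exon have no counterpart over all exon events here. How unusual such recurrence is was therefore not tested.

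Each count of members is given beside the share called in that direction over all exon events tested with the same compound. The response was not particular to the very short exons. Their share called in the direction of the class was above that of exons of 16 to 27 nt with only 2 of 17 activators and 2 of 10 inhibitors. With T5985871, for example, 23.3% of the exons of 16 to 27 nt were decreased, and with CI-994 11.5% were increased. Starting levels differed between the lengths. In DMSO 61.5% of the very short exons were under 10, beside 14.2% of those of 16 to 27 nt, and 17.1% beside 53.9% were over 90. Among exons with a DMSO PSI of 10 to 90, the median change with T5985871 was −15.22 PSI for the very short exons and −14.83 for those of 16 to 27 nt. With CI-994 it was 5.06 and 6.69. Among the HDAC inhibitors, Vorinostat had 19 of 315 exons called higher (6.03%, beside 0.866% over all) and 7 called lower (2.22%, beside 0.441%). CI-994 had 17 of 312 called higher (5.45%, beside 0.907%) and 3 called lower (0.349% over all), BRD6688 had 20 of 319 called higher (6.27%, beside 0.579%) and 1 called lower (0.229%), and BRD4884 had 19 of 317 called higher (5.99%, beside 0.639%) and 2 called lower (0.206%). These 4 compounds thus gave like numbers of increases.

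Among the kinase inhibitors, GNF-5837, which acts on TRK receptors, had 31 of 310 exons called higher (10.0%, beside 0.83%) and 0 called lower (0.402%). A-443654, an AKT inhibitor, had 27 of 315 called higher (8.57%, beside 0.624%) and 2 called lower (1.44%). Trametinib, a MEK inhibitor, had 22 of 319 called higher (6.9%, beside 0.5%) and 3 called lower (0.258%), whereas SCH-772984, which acts on ERK downstream of MEK, had 9 of 320 called higher (2.81%, beside 0.346%) and 0 called lower (0.346%). NVP-AEW-541, an IGF1 receptor inhibitor, had 18 of 316 called higher (5.7%, beside 0.62%) and 2 called lower (0.349%), and Crenolanib, a PDGF receptor inhibitor, had 17 of 314 called higher (5.41%, beside 0.642%) and 1 called lower (0.353%).

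The screening molecules of the activator class spread more widely. BTB12021 had 31 of 313 exons called higher (9.9%, beside 0.727%) and 2 called lower (1.57%), and S02045 had 29 of 315 called higher (9.21%, beside 0.539%) and 1 called lower (1.54%). RDR00572 had 25 of 313 called higher (7.99%, beside 0.56%) and 6 called lower (1.86%). RH01954 had 19 of 315 called higher (6.03%, beside 0.359%) and 1 called lower (0.84%), SEW06315 had 16 of 310 called higher (5.16%, beside 0.392%) and 0 called lower (0.276%), and BTB13120 had 10 of 312 called higher (3.21%, beside 0.391%) and 4 called lower (0.602%). BTBS00065 was the weakest, with 3 increases of 319 (0.94%, beside 0.485%) and 4 decreases (1.25%, beside 0.219%). The DMSO libraries set against each other gave like shares on these exons, 0.932% to 0.987% for increases and 0.311% to 1.32% for decreases.

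Among the inhibitors, T5985871 had 57 of 296 exons called lower (19.3%, beside 2.59%) and 4 called higher (0.717%), and AW00693 had 55 of 311 called lower (17.7%, beside 1.28%) and 2 called higher (0.33%). T5635931 had 42 of 315 called lower (0.873% over all) and 1 called higher (0.299%), T5758020 had 38 of 313 called lower (1.06%) and 0 called higher (0.314%), and T5963258 had 29 of 310 called lower (0.679%) and 0 called higher (0.251%). Decreases outnumbered increases with each of these. MK-1775, an inhibitor of the WEE1 kinase, had 23 of 313 called lower (2.43%) and 4 called higher (0.249%), 5-azacytidine, an inhibitor of DNA methyltransferases, had 22 of 313 called lower (0.891%) and 3 called higher (0.266%), the ChemBridge compound had 18 of 315 called lower (0.815%) and 3 called higher (0.356%), and SPB00858 had 14 of 315 called lower (0.623%) and 3 called higher (0.227%). JFD00822 was the weakest, with 6 decreases of 317 (1.89%, beside 1.09%) and 4 increases (0.192%).

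**Figure D2:**
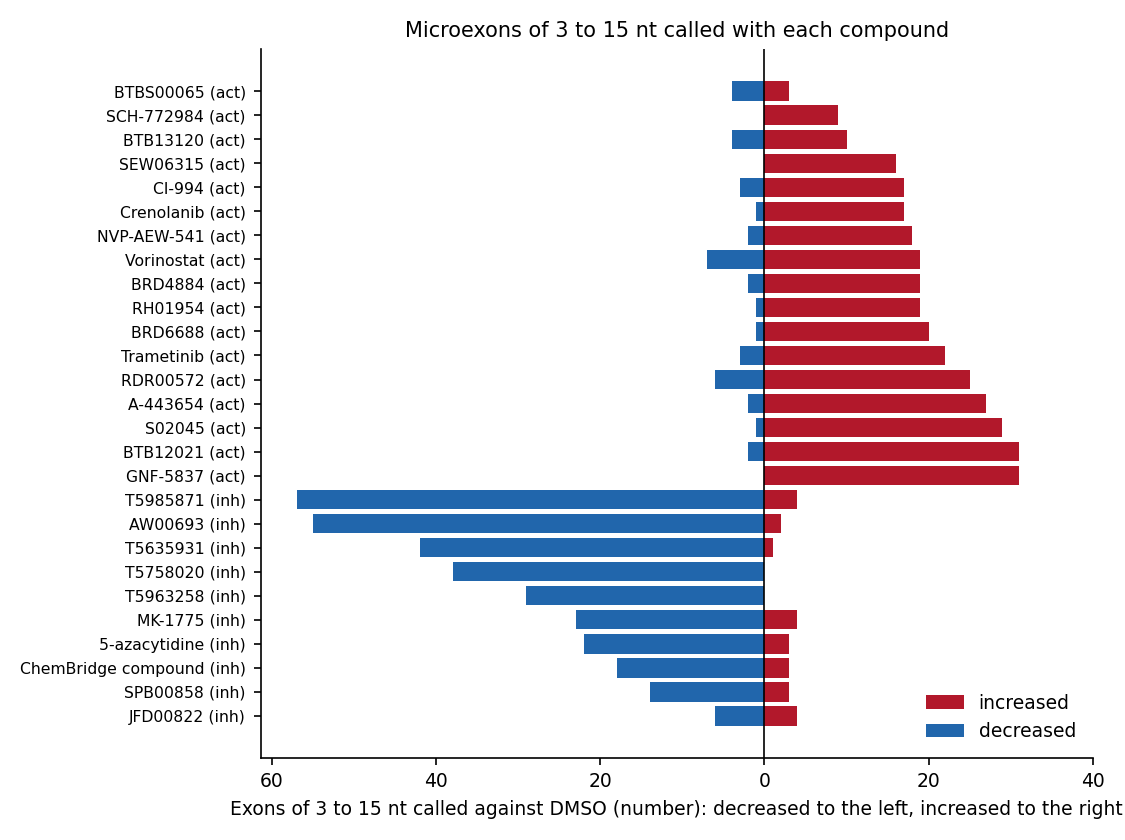
Number of exons of 3 to 15 nt called increased (bars to the right) and decreased (bars to the left) with each compound against the 3 DMSO libraries. The 17 activators reach 3 to 31 increases and 0 to 7 decreases, and the 10 inhibitors 6 to 57 decreases and 0 to 4 increases.

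Several exons recurred among the largest single changes, which are given here for 5 compounds chosen for detail. With CI-994, Ppfia2 (liprin-α2, a scaffold of the presynaptic active zone) reached a PSI of 51.0, 33.5 above its DMSO mean, Pacsin2 (an F-BAR protein of endocytosis) reached 69.2 (31.7 above) and the 12-nt exon of L1cam (a neural adhesion molecule) 72.1 (31.4 above). With Trametinib the leading exons were those of Atp2c1 (a calcium and manganese pump of the Golgi), 27.3 above DMSO on 32 reads, Lphn2 (24.8 above) and Ppfia2 (22.5 above). With RDR00572 they were Sh3glb2 (endophilin B2; 45.3 above), Zmynd8 (a chromatin reader; 37.8 above) and Trpm2 (a cation channel; 33.2 above on 30 reads). With AW00693, the exon of Cdon (a hedgehog coreceptor at the cell surface) fell by 48.8 to 18.7, that of Scyl2 (a pseudokinase of clathrin-coated vesicles) by 47.6 to 35.6 and that of Asap2 (an Arf GTPase-activating protein) by 39.6 to 51.7. With T5985871, Bbs9 (a subunit of the BBSome of cilia) fell by 62.2 to 30.4 on 25 reads, Cdon by 60.3 to 7.2 and Asap2 by 55.0 to 36.4. Cdon and Asap2 led with both inhibitors, while the activators shared Ppfia2 between CI-994 and Trametinib.

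The 17 activators were next compared with the 10 inhibitors with 1 value per compound, so that the spread between compounds was the error and DMSO was not used. Compounds that share a target, such as the HDAC inhibitors, were counted as separate units. The adjusted p-values may be too small for that reason. The test was limma on the log2 odds of inclusion, fitted over all 10087 exon events that passed the filters (mean PSI between 2 and 98, at least 9 activators and 5 inhibitors). An exon was called at a Benjamini-Hochberg adjusted p under 0.05 and a difference of at least 10 PSI. Of the 140 very short exons tested, 50 were higher with activators (35.7%, beside 3.01% over all exons tested) and 0 were lower (beside 0.198%). At an unadjusted p under 0.05, limma gave 94, 93 of them higher with activators. The median difference, activators minus inhibitors, was 6.67 PSI, beside 1.21 over all exons tested, and 120 of 140 differences were positive. The compounds were chosen for opposite effects on microexons, so the direction was partly set by that choice. At other lengths, 60 of 172 exons of 16 to 27 nt (34.9%) and 194 of 9775 longer exons (1.98%) were called higher with activators. Among exons with a DMSO PSI of 10 to 90 the shares were 60.9% of 64 exons of 3 to 15 nt, 58.5% of 94 of 16 to 27 nt and 6.33% of 2779 longer exons.

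By length, calls were made for 2 of 18 tested exons of 3 nt, 1 of 3 of 4 nt, 7 of 15 of 6 nt, 9 of 28 of 9 nt, 1 of 1 of 10 nt, 13 of 38 of 12 nt, 2 of 3 of 14 nt and 15 of 25 of 15 nt. None of the 9 tested exons of 7, 8, 11 and 13 nt was called. Multiples of 3 made up 46 of the 50 called exons (46 of 124 tested, or 37.1%), and other lengths the remaining 4 (of 16 tested, or 25%). The called exons lay in 48 genes, and all 36 with a GENCODE match were coding in full. In 11 of the 50 the values of the 17 activators and 10 inhibitors did not overlap. A like count over all exons tested is not given, and these exons were already called in the same comparison. Absence of overlap is for that reason a description of the values and no further support.

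**Figure D3:**
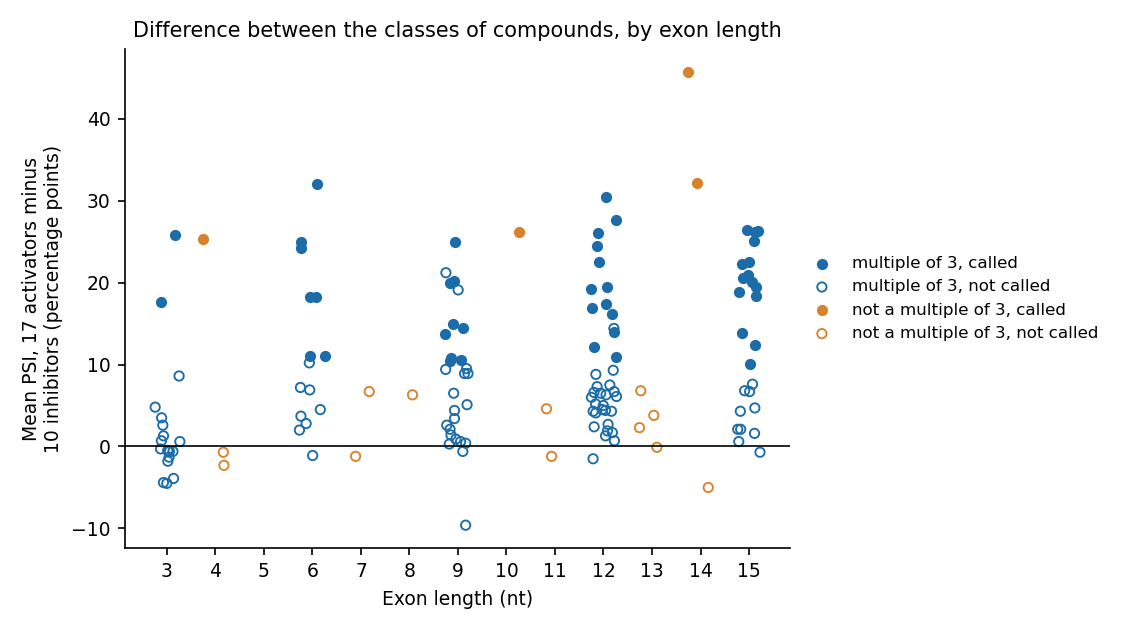
Difference of mean PSI, activators minus inhibitors (vertical axis), against exon length (horizontal axis, nt) for the 140 exons tested. Each point is 1 exon and filled points are the 50 called, all of which lie above 0, with Cdon (45.7) at the top and 15 called exons at 15 nt.

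Exons were next grouped by lists of gene roles. These lists were chosen with earlier results of these data known, so the shares called by role are descriptions. From the list of vesicle and membrane traffic, 9 of the 17 tested exons were higher with activators and 0 were lower, with a median difference of 13.7 PSI. In Pacsin2 (6 nt), which curves membranes at sites of endocytosis, DMSO libraries had a PSI of 37.5, 34.6 and 40.5. The activators ran from 43.3 (SCH-772984) over a median of 56.8 to 72.8 (A-443654), and the inhibitors from 11.8 (AW00693) over 25.3 to 36 (JFD00822). The classes did not overlap, and the difference was 32 PSI, or 2.1 ± 0.23 (SE) in log2 odds (limma, adjusted p = 3.67e-07). Pacsin2 was not itself on the list. In Scyl2 (12 nt), DMSO values were 81.7, 82.3 and 85.5, activators 83.2 to 97.3 (median 90.2) and inhibitors 35.6 to 80.3 (median 60.3). All activators were above all inhibitors (limma, adjusted p = 1.14e-06), and most of the distance from DMSO was on the side of the inhibitors. The DMSO values of Scyl2 left less room above than below. Asap2 (4 nt, the shortest called exon whose length is no multiple of 3) had DMSO values of 88.3, 92.2 and 93.4, activators from 91.4 to 97.6 and inhibitors from 36.4 (T5985871) over a median of 75 to 86.3. Again the classes did not overlap, with a difference of 25.3 PSI (limma, adjusted p = 5.36e-07). Its paralog Asap1 has a 9-nt exon at 92.4, 93.9 and 93.6 in DMSO, which was 15 PSI higher with activators than with inhibitors (limma, adjusted p = 6.5e-05). The classes overlapped there, since the lowest activator was at 86.8 and the highest inhibitor at 89.5.

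The remaining called traffic exons included those of the AP-1 clathrin adaptor subunits Ap1b1 (difference 13.7 PSI) and Ap1g1 (10.5), and of Nbea (neurobeachin, a scaffold of vesicle traffic; 14.5). The 9-nt exon of Ap1s2, another AP-1 subunit on the list, was not called. It was near full inclusion, at 99.5 and 99.1 with BRD4884 and 98.8 in both libraries of BRD6688. Ergic3, a cargo receptor between the endoplasmic reticulum and the Golgi whose exon had served to choose compounds, had DMSO values of 33.9, 39.8 and 42.0. Its activators ran from 24.2 to 59.8 (median 52.1) and its inhibitors from 16.9 to 43.2 (median 21.8), a difference of 20.1 PSI (limma, adjusted p = 0.00121), with 9 increases and 2 decreases called among activators. Sh3glb2 differed by 14 PSI (limma, adjusted p = 0.0195), but its DMSO libraries spread from 9.1 to 26.7, and with no filter on mean PSI limma's adjusted p was 0.0627. The call of Ap1b1 was lost without the 4 HDAC inhibitors (limma, adjusted p = 0.0893). Off the list, Eea1, a tether of early endosomes, had a 15-nt exon at 27.9, 32.2 and 35.6 in DMSO, 28.5 to 51.6 with activators and 8.9 to 24.3 with inhibitors. These classes did not overlap (difference 22.5 PSI; limma, adjusted p = 1.38e-06).

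Among adhesion, guidance and synapse genes, 6 of 11 tested exons were higher with activators and 0 were lower, with a median difference of 19.1 PSI. The 14-nt exon of Cdon had the largest difference among the 50 called. It had DMSO values of 62.0, 60.8 and 79.8, activators from 60.3 (BTBS00065) over a median of 74.1 to 97.2 (A-443654), and inhibitors from 7.2 (T5985871) over 27.3 to 52.6 (MK-1775). The classes did not overlap, although 1 DMSO library stood well above the others, and the difference was 45.7 PSI, or 2.95 ± 0.35 (SE) in log2 odds (limma, adjusted p = 1.27e-06). Against DMSO it was decreased with 9 of 10 inhibitors and increased with 1 activator. L1cam had 2 called exons at different starting levels. The 12-nt exon, which lies in the part of the gene for the cytoplasmic tail, was at 42.6, 41.4 and 38.1 in DMSO, 45.0 to 73.4 with activators (median 62.4) and 27.7 to 43.5 with inhibitors (median 38.3). It was increased with 15 of 17 activators and decreased with 2 inhibitors, so that its movement was mainly upward (difference 24.4 PSI; limma, adjusted p = 3.51e-06). The 15-nt exon was at 80.3, 86.8 and 87.8 in DMSO and moved mainly downward, with 0 increases and 5 decreases with inhibitors (difference 18.9 PSI; limma, adjusted p = 4.17e-05). Its high start left little room for a call of increase, and its activators ran from 79.8 to 93.8 (median 88.5).

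The latrophilins Lphn1 and Lphn2, adhesion receptors of the G protein-coupled family, likewise differed in their start. Lphn2 had DMSO values of 17, 15 and 18.5, activators from 15.2 over 34.5 to 56.3 (BTB12021) and inhibitors from 0.8 (T5985871) over 6.4 to 23.3. It was increased with 13 activators and decreased with 5 inhibitors (difference 26.1 PSI; limma, adjusted p = 5.85e-05). Lphn1 was at 52.8, 54.3 and 41.4 in DMSO, 45.6 to 83.8 with activators and 17.8 to 57.6 with inhibitors, with 7 increases and 4 decreases (difference 22.3 PSI; limma, adjusted p = 0.00257). In both genes the classes overlapped. The 9-nt exon of Ptprs, a receptor tyrosine phosphatase, was low in DMSO (15.4, 10.7 and 8.2) and differed by 10.4 PSI (limma, adjusted p = 0.00504).

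In the list of cytoskeleton and signalling genes, 10 of 22 tested exons were higher and 0 lower, with a median difference of 7.6 PSI. Dctn1, the large subunit of dynactin, had DMSO values of 68.1, 62.2 and 65.3 at its 15-nt exon, activators from 60.6 over 74.5 to 85.9 and inhibitors from 32.8 over 46.5 to 56.2. The classes did not overlap, and 8 activators increased and 9 inhibitors decreased it (difference 26.2 PSI; limma, adjusted p = 1.34e-05). Both 15-nt exons of Vav2, a guanine nucleotide exchange factor, were called. The upstream exon was at 80.1, 85.0 and 93.3 in DMSO, with activators from 82.3 to 95.8 and inhibitors from 46.4 to 79.4 (difference 26.3 PSI; limma, adjusted p = 6.34e-07). The downstream exon was at 74.1, 76.8 and 73.0, with activators from 74.5 to 92.3 and inhibitors from 32.2 to 68.9 (difference 26.4 PSI; limma, adjusted p = 9.21e-06). Neither exon had overlapping classes, and both lie in 1 gene, so they are not separate genes moving together. Git2 (an Arf GTPase-activating protein) differed by 24.9 PSI, Abi1 (a subunit of the WAVE complex) by 20.5, Rapgef6 (a Rap exchange factor) by 19.5, Clip1 (a microtubule plus-end protein) by 18.2, Apbb1 (a binding partner of the amyloid precursor) by 11.1 and Ptk2 (focal adhesion kinase) by 10.8.

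Chromatin and transcription had 4 exons of this length, of which 3 were tested and 1 called, that of Zmynd8. Its DMSO values were 52.2, 53.4 and 49.2, its activators ran from 46.8 over 59.4 to 90 (BTB12021) and its inhibitors from 34.7 over 42.9 to 56.0 (difference 19.5 PSI; limma, adjusted p = 0.0159). The classes overlapped, and most activators lay far under the highest. The exons in no list gave 24 calls among 87 tested, with a median difference of 4.5 PSI. They included Prdm10, a zinc-finger protein, at 46.9 and 31.2 in the DMSO libraries that passed (difference 27.6 PSI; limma, adjusted p = 0.00692), and Tmco4, whose 14-nt exon passed in only 1 DMSO library (65.5) and had values for 12 activators (difference 32.1 PSI; limma, adjusted p = 0.0103).

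**Figure D4:**
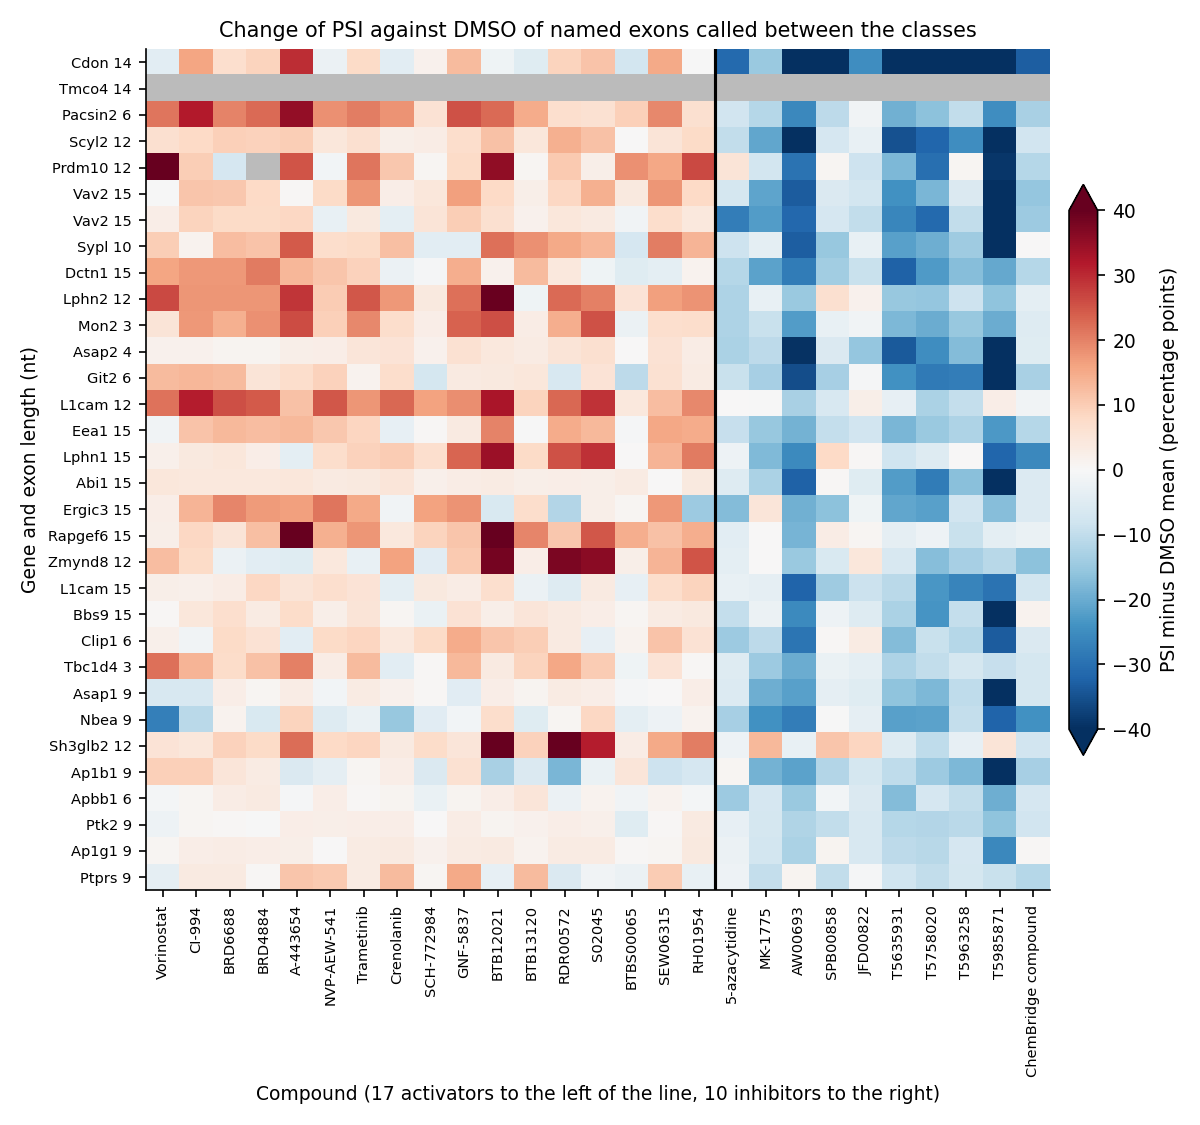
PSI minus the DMSO mean for 32 of the 50 exons called between the classes (rows, all named in the text) with each of the 27 compounds (columns), on a colour scale in PSI. Grey marks exons with no value. Activator columns are mostly above DMSO and inhibitor columns below it, with the lowest values with T5985871 and AW00693, and the row of Tmco4 is grey since it had no DMSO mean.

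The exons of 3 to 5 nt were examined on their own, since they leave least room for any signal within the exon. The 3-nt exon of Mon2, which acts in traffic from endosomes to the Golgi, had DMSO values of 30.5, 32.8 and 28.7. With activators it ran from 28.2 over 44.8 to 56.8 (A-443654), and with inhibitors from 8.2 (AW00693) over 16.9 to 29.2. The classes overlapped only between 28.2 and 29.2, and the difference was 25.8 PSI, or 1.91 ± 0.25 (SE) in log2 odds (limma, adjusted p = 4.33e-06). It was increased with 9 activators and decreased with 6 inhibitors. The 3-nt exon of Tbc1d4, a Rab GTPase-activating protein, was at 27.6, 23.7 and 21.5 in DMSO, 20.2 to 46.2 with activators (median 33.3) and 4.4 to 21.5 with inhibitors (median 16.1). Here too the overlap was narrow, with a difference of 17.6 PSI (limma, adjusted p = 0.000106), and 7 activators increased and 3 inhibitors decreased it.

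The other 3-nt exons with a DMSO PSI of 5 to 95 were not called between the classes. Cyth2, a cytohesin that activates Arf GTPases and whose 3-nt exon alters its lipid-binding domain, was at 80.6, 78.9 and 79.1 in DMSO and spanned only 11.6 PSI over the 27 compounds, with no call (difference 3.5 PSI; limma, adjusted p = 0.0792). Its paralog Cyth1 was at 87.9, 79.4 and 92.6 and went against the class, being decreased with the activators Vorinostat (62.4), S02045 (63.8), BTB12021 (70.6) and RDR00572 (72.9) and with the inhibitor MK-1775 (73.7). The spread of its DMSO libraries was 6.7 PSI (SD), and it did not differ between classes at the threshold (−4.4 PSI; limma, adjusted p = 0.304). Ddx46, a helicase of the spliceosome, was at 78.3, 80.9 and 84.6 and spanned 7.8 PSI, and Gnas, the stimulatory G protein α subunit, was at 7.4, 6.2 and 8.3 and spanned 3.3 PSI. Neither was called with any compound. Ncam1, a neural adhesion molecule, was at 64.8, 66.3 and 68.8 in DMSO and at 33.8 with Vorinostat, with activators otherwise reaching 74.3. St18, a zinc-finger protein, was at 8.6, 6.5 and 2.0, and Trpm2 at 14.8 and 21.9.

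Exons whose length is no multiple of 3 were few among the increases. Not all of them are known to be coding: Ccnl1 lies in a UTR, and Cdon, Asap2, Sypl and Tmco4 had no GENCODE match. Over the activators 20 of 907 pairs were increases (2.21%), beside 312 of 4447 (7.02%) for multiples of 3, and over the inhibitors 29 of 537 pairs were decreases (5.40%), beside 275 of 2581 (10.7%). Among exons with a DMSO PSI of 10 to 90 the shares were 13 of 85 pairs (15.3%) beside 274 of 1057 (25.9%) for increases with activators, and 18 of 50 pairs (36%) beside 205 of 602 (34.1%) for decreases with inhibitors. The 5 exons of such length in this range supply all of their pairs, so these shares rest on few exons. Besides Cdon, Asap2 and Tmco4, the called exon of this kind was the 10-nt exon of Sypl, a relative of the vesicle protein synaptophysin. It was at 60.0, 59.0 and 62.9 in DMSO, 53.8 to 85.1 with activators (median 72.5) and 20.5 to 60.6 with inhibitors (median 45.8). It was increased with 10 activators and decreased with 6 inhibitors, the classes overlapping (difference 26.2 PSI, or 1.66 ± 0.28 (SE) in log2 odds; limma, adjusted p = 0.000165). The 11-nt exon of Snx21, a sorting nexin, was near full inclusion in DMSO (97.8, 94.3 and 100) and was decreased only with AW00693 (76.6).

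**Figure D5:**
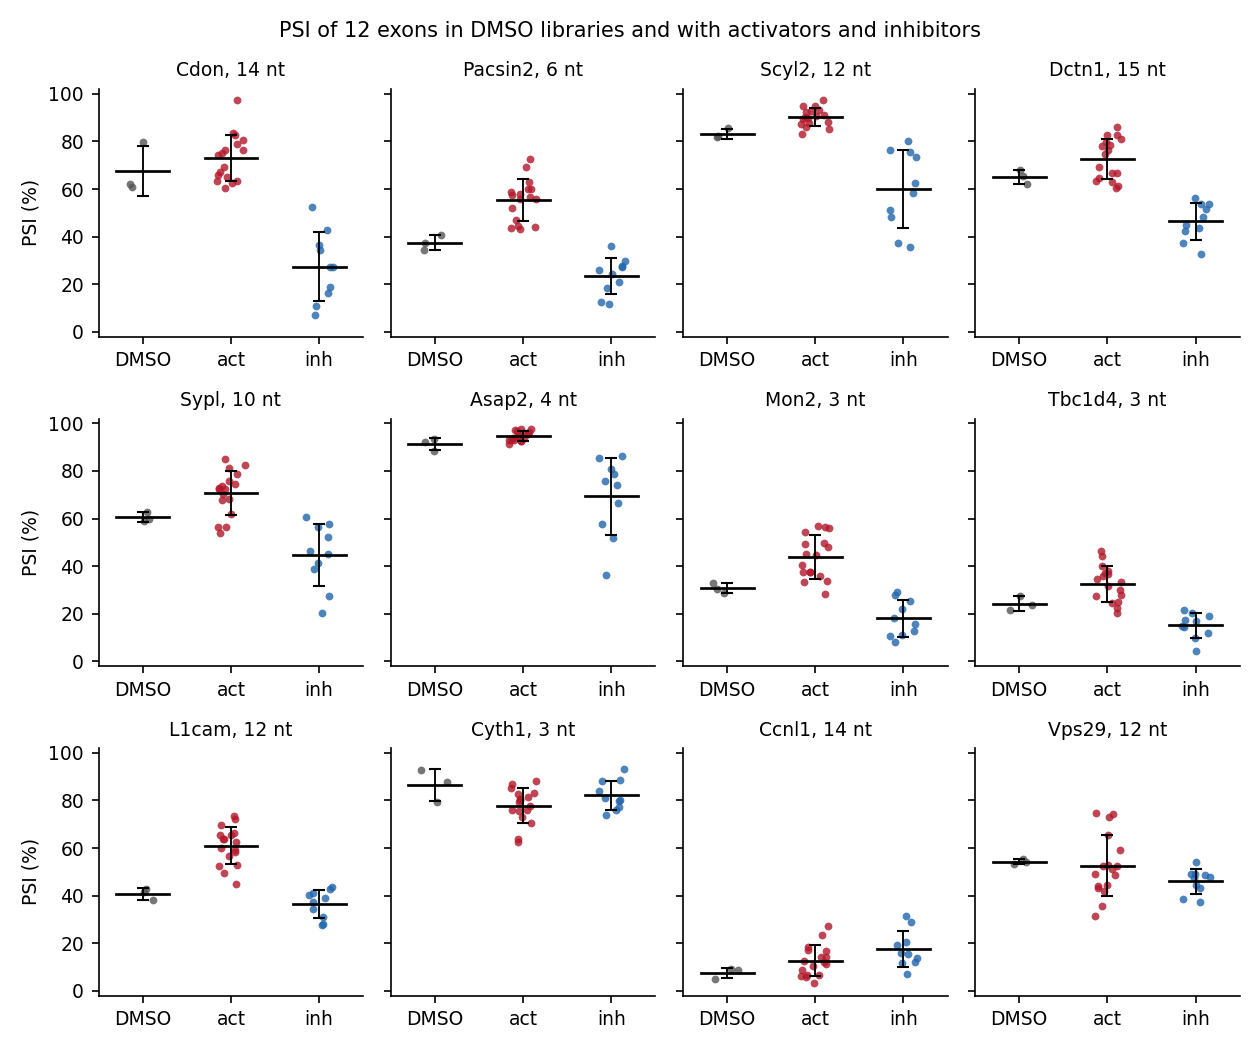
PSI (vertical axis) of 12 exons in the DMSO libraries, with the 17 activators and with the 10 inhibitors. Each point is a library of DMSO or a compound, and bars give the mean ± SD of each group. Cdon, Pacsin2, Scyl2, Dctn1, Asap2 and the 12-nt exon of L1cam show classes without overlap, whereas in Cyth1, Ccnl1 and Vps29 the classes lie over each other.

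Calls against the direction of the class fell on 35 exons, of which 18 had a single such call and 7 had 3 or more. Like counts over all exon events are not given. As pairs, decreases with activators were 39 of 5354, and increases with inhibitors were 24 of 3118. The shares over all exon events were 0.66% and 0.318%, but room to move differed. In DMSO 61.5% of the very short exons were below 10 and could not be called decreased. Of all exon events 90.8% were above 90 and could not be called increased. The DMSO libraries set against each other gave calls on the very short exons at a like rate (0.311% to 1.32%). The exons named next are for that reason described by their values. The 12-nt exon of Vps29, a subunit of the retromer that recycles cargo from endosomes, was steady in DMSO (53.4, 54.2 and 55.4) and moved both ways among activators. It was increased with BTB12021 (74.5), RDR00572 (74.1), S02045 (73.1) and RH01954 (65.3). It was decreased with Vorinostat (31.5), CI-994 (35.5), A-443654 (42.1), BRD6688 (43.2) and NVP-AEW-541 (44.0), and with the inhibitors MK-1775 (37.3), the ChemBridge compound (38.5) and T5985871 (43.4). BRD4884, not called, was at 43.6 and 45.6, so that all 4 HDAC inhibitors had means under the DMSO libraries. The 14-nt exon of Ccnl1, cyclin L1, was at 9.1, 8.6 and 4.9 in DMSO and rose with compounds of both classes. Its values were 27.3 with Vorinostat, 23.6 with Crenolanib and 18.6 with BTBS00065, and 31.5 with T5985871, 29 with MK-1775, 20.6 with T5635931 and 19.4 with JFD00822. The 12-nt exon of Mtss1, an I-BAR protein of the actin cortex, was near 0 in DMSO (2.2, 1.0 and 3.1) and was increased with 8 activators and 3 inhibitors. Iffo1, an intermediate filament family member, was decreased with Trametinib (32.9), BTB13120 (18.3) and BTBS00065 (38.1) from DMSO values of 54.3, 48.0 and 66.8. Cacna1b, the pore of the N-type calcium channel, and Nbea were each decreased with 3 activators.

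The screening molecules BTB12021, RDR00572, S02045 and RH01954 moved several of the same exons by different amounts, though their doses differed and no comparison between them was made. Zmynd8, at a DMSO mean of 51.6, was at 90, 89.5, 87.6 and 76.9 with the 4 in that order, and Sh3glb2, at a DMSO mean of 17.9, was at 61.2, 63.2, 49.4 and 38.3. Lphn1, at 49.5 in DMSO, was at 83.8, 74.9, 78.7 and 70.4. Rapgef6, at 21.4 in DMSO, was at 63.1, 32, 46.3 and 35.8. The value with BTB12021 was the highest for Zmynd8, Lphn1 and Rapgef6 among all the activators, and that with RDR00572 the highest for Sh3glb2.

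The 4 HDAC inhibitors, with 2 libraries each, allowed a test between conditions, made with limma over 9279 exon events in the 11 libraries. Of 139 very short exons tested, Vorinostat raised 5 and lowered 3 (beside 1.14% and 0.453% of all exons tested), CI-994 raised 5 and lowered 1 (1.08% and 0.28%), BRD4884 raised 2 (0.216%) and BRD6688 raised 2 (0.119%), the last 2 lowering 0 (0.0216% and 0.0108%). At an unadjusted p under 0.05, limma gave 40, 38, 34 and 38 exons, of which 27, 34, 30 and 35 were higher than in DMSO. These 14 increases in all rested on the DMSO libraries, as leaving out DMSO replicate 1 left 5 and leaving out DMSO replicate 2 left 6, while limma on PSI itself, without weights, gave 43. The 15-nt exon of Spna2 (α spectrin of neurons and other cells, which lines the membrane), named after its values were seen, was raised with each of the 4. It was at 68.3, 69.3 and 66.1 in DMSO, 92.3 and 92.9 with Vorinostat, 93.8 and 92.8 with CI-994, 88.1 and 88.9 with BRD4884, and 87.5 and 88.0 with BRD6688. Every treated library was above every DMSO library, and limma's adjusted p was 0.000235, 0.000172, 0.00576 and 0.0101 in that order.

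Pacsin2 was raised with Vorinostat (61.2 and 56.7), CI-994 (69.0 and 69.5) and BRD4884 (58.4 and 61.7), and the 12-nt exon of L1cam with Vorinostat (62.5 and 62.3) and CI-994 (73.8 and 70.5). Lphn2 and Ccnl1 were raised with Vorinostat, Mtss1 and the 15-nt exon of Plec (plectin) with CI-994, and the 9-nt exon of Psap (prosaposin, the precursor of lysosomal saposins) with BRD6688 (55.4 and 56.2, from 45.7, 44.9 and 45.8 in DMSO). The exons lowered were Vps29 (30.8 and 32.2 with Vorinostat, 37.6 and 33.5 with CI-994), Nbea (60.0 and 58.7) and Ncam1 (36.2 and 31.3), the last 2 with Vorinostat. Plec and Psap were likewise named after their values were seen.

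BRD4884 and BRD6688, both HDAC inhibitors at the same dose and time, were the only pair compared directly. With limma 0 of the 139 exons differed at the adjusted threshold (0.0% of all exons tested either way), 7 had an unadjusted p under 0.05 (2 of them higher with BRD4884), and the lowest adjusted p among the 139 was 0.688. Differences in mean PSI, BRD4884 minus BRD6688, ran from −11.3 to 15.1, with a median of −0.4. They were under 5 PSI in size for 112 exons and at least 10 for 6. The 95% interval of the difference spanned 0 for 132 exons but was wide, at a median of 2.44 in log2 odds, so that sizeable differences between the compounds could not be seen with these libraries.

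Other properties that had not entered the choice of exons were read from the matched sequences and the gene models. Of the 36 called exons with a GENCODE sequence, 13.9% began with G, beside 42.0% of the 50 that were tested and not called, and 75% beside 84.0% ended in G. Median GC content was 46.7% and 50.0%. Flanking introns had medians of 1396 nt upstream and 1111 nt downstream for called exons, beside 1396 and 1505 nt for those not called. These are descriptions of the letters and lengths, with no test.

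The RPKM table holds 1 value per gene and condition, merged by the authors, so gene levels carry no spread and no test. The 48 host genes of the called exons had a median log2 ratio to DMSO of −0.04 with activators and −0.1 with inhibitors, with a pseudocount of 0.5, and 0 of them had a median change of 1 or more in either class. Sypl had the largest of these, 0.67 with inhibitors. Srrm4, whose protein promotes microexon inclusion, was at 10.42 RPKM in DMSO, 8.62 to 19.63 with activators (median 11.51) and 3.34 to 13.38 with inhibitors (median 7.86). It was above DMSO with 15 of 17 activators and below it with 9 of 10 inhibitors, the lowest being T5985871 (log2 ratio −1.51). Srrm3, its relative, was at 18.49 RPKM in DMSO, with a median log2 ratio of 0.01 with activators and −0.17 with inhibitors, and was also lowest with T5985871 (−1.43). Ptbp1, a repressor of many neuronal exons, was at 476.41 RPKM in DMSO, with median log2 ratios of −0.28 and 0.07. Rbm38, an RNA-binding protein of the list, was at 40.62 RPKM in DMSO, with median log2 ratios of −0.22 with activators and 0.59 with inhibitors, and was highest with T5985871 (2.72). Rbfox1, a splicing factor of neurons and muscle, was at 5.07 RPKM and lower in both classes (−0.38 and −0.53), above DMSO with only 1 of 17 activators. Median ratios of the 22 regulators checked ran from −0.41 (U2af1) to 0.17 (Rbfox2) with activators and from −0.57 (Elavl4) to 0.59 (Rbm38) with inhibitors. The part of these levels in the splicing differences was not tested.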

How the data were processed

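RNA-seq of N2A cells (34 libraries, 24 h) was processed by the authors with vast-tools 2.1 on mm9; Salmon 0.10.2 and edgeR are named in the submitters' notes. The deposited splicing values are PSI in percent with quality scores that give the inclusion and exclusion reads. The authors' RPKM values are merged per condition. Columns of the authors' own comparisons were not used, and 0 value columns lacked a sample. The members and gene lists were chosen with earlier results of these data known. A library was used where coverage was SOK, OK or LOW and balance OK or B1. The microexon module writes no balance score, which was taken as passing. Posterior calls used 2000 beta draws per library. limma 3.58.1 (R 4.3.3) was fitted to log2((inclusion + 0.5)/(exclusion + 0.5)) of reads with weights and an intensity trend over all exons, with Benjamini-Hochberg adjustment, and tested on simulated data; Python 3.11.15, pandas 2.3.3, numpy 2.4.6 and scipy 1.17.1 were used otherwise. Classes and doses came from the study's supplement. Replicates are separate samples by label, and where they share a culture p-values measure technical spread. Replicate letters showed no sign of pairing libraries: 20 correlations of deviations lay between −0.03 and 0.04. Pairs of HDAC inhibitors give the same value for both letters, so not all 20 are separate. Low correlations do not exclude a shared culture or batch, since counting error can hide it.

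Exons named were, by rule, the 8 with the largest called class difference in each direction, the 5 called in most compounds, those called against the class in 3 or more compounds, the 3 leading exons for each of 5 compounds, exons of 3 to 5 nt with a DMSO PSI of 5 to 95, up to 5 whose length is no multiple of 3, up to 5 called in none, and called exons of the gene lists. Some results are not reported here.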

Additional observations from a re-analysis of the deposited data

Results flagged for a closer look

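In 7 of 52 groups examined (the 10 inhibitors at 1 exon each), a single inhibitor lay far from the other 9 by Dixon's criterion, which chance meets in about 1 in 20 groups. In 5 of them that compound was T5985871, at a PSI of 35.4 for the 9-nt exon of Fryl, 30.4 for the 15-nt exon of Bbs9, 53.4 for the 9-nt exon of Asap1, 44.1 for the 15-nt exon of Celsr3 and 69.8 for the 9-nt exon of Ap1g1, each below the other inhibitors, the nearest of which were at 62.0, 67.1, 71.5, 82.7 and 82.7. The 12-nt exon of Idh3g stood above the others at 83.4 with SPB00858 (next 78.0), and the 12-nt exon of Agrn at 32.5 with JFD00822 (next 21.4). Each compound had 1 library, and the cause was not tested.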

How the results depend on the processing

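The count of 50 exons higher with activators stayed between 47 and 54, with 0 lower, under the 6 alternatives run. The share called depended on the filter on mean PSI, being 50 of 140 exons tested with it and 49 of 317 without it. Of 300 alternatives for its single exons, 296 kept their call, 0 reversed and 4 lost it: Sh3glb2 with no filter on mean PSI (limma, adjusted p = 0.0627), and Ap1b1, Agrn and Fnbp1 without the 4 HDAC inhibitors. Calls against DMSO moved with the threshold: at 15 PSI, activators had 200 increases and 18 decreases and inhibitors 189 decreases and 11 increases; at 5 PSI, activators had 520 increases and 80 decreases and inhibitors 51 increases. With limma over all 34 libraries, activators had 52 increases and 4 decreases and inhibitors 66 decreases and 1 increase. For the 4 HDAC inhibitors, increases numbered 43 and decreases 8 with limma on PSI itself, and 5 to 13 increases were left when single libraries were left out (5 without DMSO replicate 1, 6 without DMSO replicate 2). With the replicate letter as a block, 5 increases and 2 decreases were called in place of 14 and 4, and BRD4884 against BRD6688 stayed at 0. The letters had shown no sign of pairing libraries. The DMSO median of 2.15 ranged from 1.88 to 2.71 without single DMSO libraries, the highest without replicate 2. The cause of these changes was not tested. Exons with few reads have wide counting error, and 23 compounds had 1 library.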
